A study of Arabidopsis thaliana with 8 samples.

Results

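Transcripts of 8 genes of the cytokinin response were followed in Arabidopsis thaliana seedlings that lack parts of the ASAP complex. The genes were picked from a list of locus identifiers, with no threshold on measured values but with earlier results of these data known. They were the type-A response regulators ARR3 (AT1G59940), ARR4 (AT1G10470), ARR7 (AT1G19050) and ARR15 (AT1G74890) and the type-B response regulator ARR11 (AT1G67710). The others were the receptor AHK4 (AT2G01830), the phosphotransfer protein AHP5 (AT1G03430) and the cytokinin oxidase CKX5 (AT1G75450). All 8 carried values and passed the filter on low counts, among 9536 loci with values and 5261 tested genes. Each of 4 genotypes gave 2 RNA libraries from seedlings, with no word in the labels on which organs were taken. Besides wild-type Col0 there was sr45, with a T-DNA insertion in the splicing factor gene SR45. The other mutants were sap18sr45, with insertions in SAP18 and SR45, and asap, with insertions in SAP18, SR45 and ACINUS. The asap line came from a cross of sap18 sr45 with sap18 acinus plants, so every mutant here carries the SR45 insertion, and each mutation is represented by 1 insertion allele. The seedlings were 11 days old and had grown on MS medium at 22 °C with 16 h of light and 8 h of darkness, with no cytokinin treatment named in the labels. SAP18, SR45 and ACINUS together form the ASAP complex, which accompanies messenger RNA during splicing, and the study set the mutants side by side to look for cumulative effects on vegetative growth.

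Cytokinins are plant hormones that promote cell division in the shoot, restrain root growth and delay leaf senescence. They are perceived by membrane histidine kinases such as AHK4, which pass a phosphoryl group through histidine phosphotransfer proteins such as AHP5 to response regulators in the nucleus. Type-B regulators such as ARR11 are transcription factors that switch on cytokinin-responsive genes, and among their best known targets are the type-A regulators, which hold no DNA-binding domain and dampen the pathway as negative feedback. Cytokinin oxidases such as CKX5 break the hormone down.

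The DNA just upstream of the genes on which the results turn is shown because type-B regulators are known to bind short motifs in such regions. The windows are the 300 bases before the annotated gene start, taken from the RefSeq genome TAIR10.1 and written 5′ to 3′ on the strand of the gene. ARR7, ARR15 and ARR4 are the type-A genes whose RNA fell in the mutants, and AHK4 is the receptor whose RNA rose in asap. Capitals mark matches on either strand to forms of the core motif of type-B regulators: the motif AGATT, the motif AGATC, the motif GGATT and the motif GGATC.
ARR7 (chr1:6579315-6579614, minus strand): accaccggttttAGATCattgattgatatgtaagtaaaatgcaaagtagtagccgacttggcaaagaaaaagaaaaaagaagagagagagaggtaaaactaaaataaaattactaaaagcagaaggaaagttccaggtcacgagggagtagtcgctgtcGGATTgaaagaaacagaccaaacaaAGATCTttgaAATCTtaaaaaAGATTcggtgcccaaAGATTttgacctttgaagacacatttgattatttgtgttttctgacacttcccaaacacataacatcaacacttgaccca
ARR15 (chr1:28133026-28133325, minus strand): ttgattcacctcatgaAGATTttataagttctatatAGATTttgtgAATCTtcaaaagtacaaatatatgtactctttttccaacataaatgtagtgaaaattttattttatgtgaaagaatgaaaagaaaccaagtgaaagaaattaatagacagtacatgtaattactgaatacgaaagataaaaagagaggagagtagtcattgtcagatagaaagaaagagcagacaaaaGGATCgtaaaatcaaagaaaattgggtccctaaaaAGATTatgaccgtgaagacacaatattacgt
ARR4 (chr1:3444361-3444660, minus strand): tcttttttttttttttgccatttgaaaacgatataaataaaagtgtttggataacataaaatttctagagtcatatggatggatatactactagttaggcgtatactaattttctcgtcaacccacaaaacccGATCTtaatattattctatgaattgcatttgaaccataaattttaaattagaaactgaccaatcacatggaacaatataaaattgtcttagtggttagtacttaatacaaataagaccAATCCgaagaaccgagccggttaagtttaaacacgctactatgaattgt
AHK4 (chr2:369708-370007, minus strand): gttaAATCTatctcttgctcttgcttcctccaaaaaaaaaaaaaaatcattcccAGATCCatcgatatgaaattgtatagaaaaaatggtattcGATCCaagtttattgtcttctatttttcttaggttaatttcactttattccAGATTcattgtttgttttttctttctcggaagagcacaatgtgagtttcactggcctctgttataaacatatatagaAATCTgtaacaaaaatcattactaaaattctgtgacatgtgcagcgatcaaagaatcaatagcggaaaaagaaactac
Both strands were searched, so the palindrome AGATCT counted as 2 matches of the motif AGATC. The letters AGATCC counted as 1 match of the motif AGATC and 1 match of the motif GGATC. ARR7 held 7 matches, a number reached by 3.37% of 27443 protein-coding windows of the same length. AHK4 held 6 matches, reached by 7.45% of windows, and ARR15 and AHP5 held 5 each, reached by 14.8%. ARR11 held 4 matches, ARR3 and ARR4 2 each, and CKX5 1. Such 5-letter motifs are common: the motif AGATT occurred in 70.7% of the windows, the motif AGATC in 31.7%, the motif GGATT in 44%, the motif GGATC in 21.7% and at least 1 of these in 90.4%. The matches are a description of the letters and not of bound sites.

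The libraries held between 1295244 and 4052420 counts over the loci with values, with the lowest total in sr45 replicate 1, and 3 counts corresponded to between 0.740 and 2.32 CPM (counts scaled to library size). The spread between replicates, as the biological coefficient of variation, was 3.59% in Col0 and 4.55% in sap18sr45, but 10.6% in sr45 and 14.2% in asap. The edgeR fit shared 1 spread among the genotypes, with a common value of 8.2%. This is below the spread of sr45 and asap and above that of Col0 and sap18sr45, which limits the p-values of all comparisons. SR45 RNA, which checks the genotypes, was at 24.2 and 21 cRPKM in Col0 (a read count corrected for the mappable length of the gene and for the mapped reads of the library), 6.62 and 4.99 in sr45, 13.6 and 14.4 in sap18sr45, and 6.23 and 3.85 in asap. All mutant libraries lay below both Col0 libraries, but the level in sap18sr45 was above that in sr45 (log2 difference 1.26 ± 0.21 SE, adjusted p = 0.000234). Against Col0 the log2 difference was -2.02 in sr45 (adjusted p = 8.14e-09), -2.36 in asap (6.77e-11) and -0.76 in sap18sr45 (0.00104, but 0.0561 with limma on log2(cRPKM + 0.5) and 0.0611 without Col0 replicate 1). The levels in the mutants were thus unequal, and the part of this inequality in the differences between sap18sr45 and the other mutants was not tested. Loci for SAP18 and ACINUS were not analysed here.

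Against Col0, 3 of the 8 genes were lower in sr45, and the same 3, ARR4, ARR7 and ARR15, were lower in sap18sr45. In asap, ARR4, ARR7, ARR15 and AHP5 were lower, and ARR3 and AHK4 were higher. A gene is called higher or lower where its adjusted p in the edgeR quasi-likelihood test was under 0.05. Over all genes tested, 31.7% were called in sr45 (15.2% higher and 16.5% lower), 27.1% in sap18sr45 (12.9% higher and 14.2% lower) and 51.6% in asap (25.6% higher and 26% lower). The counts of 3, 3 and 6 of 8 were near these shares, so the number of calls says nothing particular about the cytokinin genes, and the 3 comparisons share the Col0 libraries. The median log2 difference of the 8 genes was -0.44 in sr45, -0.20 in sap18sr45 and 0.07 in asap, beside -0.01, 0.01 and 0.01 over all genes tested. Under the 2-fold rule of the study, the calls that held were ARR15 in sr45 and ARR4 and ARR15 in asap. In cRPKM without further scaling, the median log2 difference of all genes between asap and Col0 was 0.144, a shift of 0.137, and no called gene of the 8 changed direction.

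**Figure D1:**
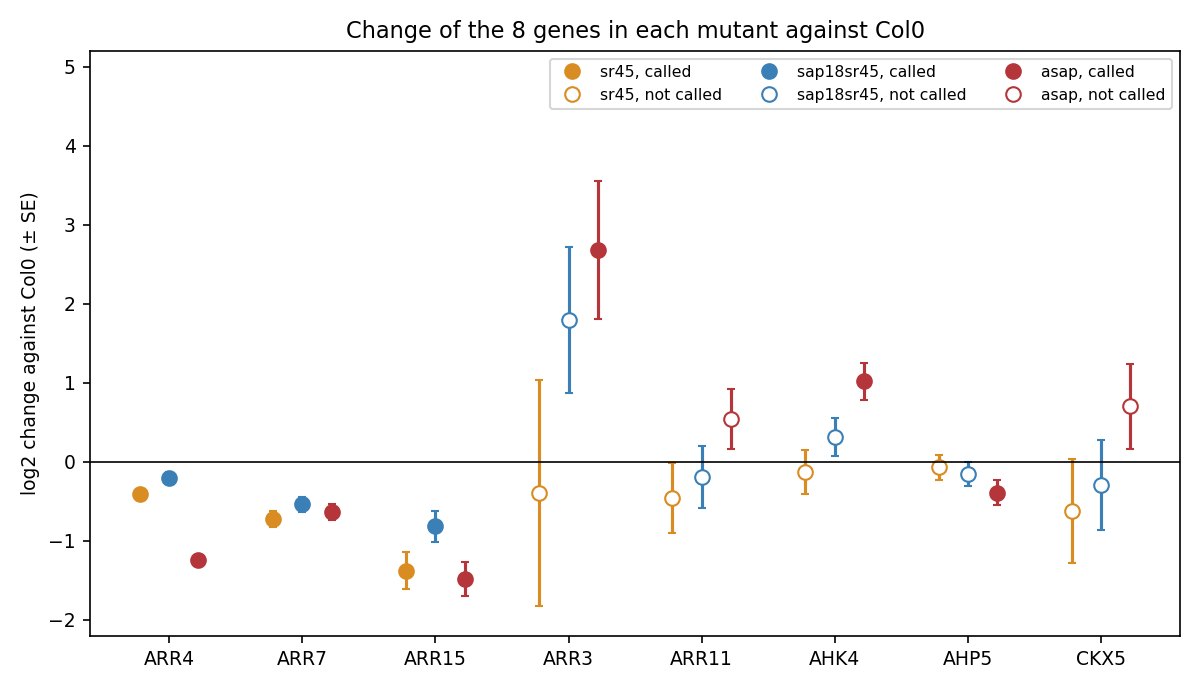
Log2 difference from Col0 (vertical axis, ± SE) of the 8 genes (horizontal axis) in sr45, sap18sr45 and asap, with filled points for genes called by the edgeR test and open points for genes not called. ARR4, ARR7 and ARR15 lie below 0 in all 3 mutants, whereas ARR3 and AHK4 are called in asap, on the higher side, and not in the other mutants.

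Among the mutants, 0 of the 8 genes were called between sap18sr45 and sr45, where 5.61% of all genes were (2.51% higher and 3.1% lower in sap18sr45). At an unadjusted p under 0.05, 2 of the 8 genes passed in this comparison, beside 16.4% of all genes. The number called was 0 with limma on log2 cRPKM and 1 with limma-voom. It was also 0 with DESeq2, which gave an adjusted p for only 3 of the 8 genes here. Between asap and sap18sr45, 3 genes were called, AHK4 as higher and ARR4 and ARR15 as lower in asap, beside 32.1% of all genes (15.4% higher and 16.7% lower). Between asap and sr45, 3 genes were called, ARR3 and AHK4 as higher and ARR4 as lower in asap, beside 27.2% of all genes (12.7% higher and 14.5% lower). In the joint test for any difference among the 4 genotypes, 5 genes passed, namely ARR3, ARR4, ARR7, ARR15 and AHK4, beside 54.2% of all genes.

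ARR4 was the most abundant of the 8 transcripts in every library, and its level fell in all 3 mutants and furthest in asap. ARR4 is a type-A regulator that also binds the photoreceptor phytochrome B. Its level was 175 and 182 cRPKM in Col0, 133 and 137 in sr45, 162 and 161 in sap18sr45, and 86.7 and 82.4 in asap. The 4 genotypes did not overlap, and their order from high to low was Col0, sap18sr45, sr45, asap. The log2 difference from Col0 was -0.41 ± 0.07 SE in sr45 (adjusted p = 1.79e-05), -0.20 ± 0.06 in sap18sr45 (0.0195) and -1.24 ± 0.07 in asap (7.26e-15), the last a level 2.37-fold lower. Between asap and sap18sr45 the log2 difference was -1.04 ± 0.07 (adjusted p = 1.15e-12), and between asap and sr45 it was -0.83 ± 0.07 (adjusted p = 5.61e-10). The neighbours sap18sr45 and sr45 were not told apart by edgeR, with a log2 difference of 0.21 (95% interval 0.08 to 0.35, adjusted p = 0.0597), but were by limma-voom (adjusted p = 0.0247). The small fall in sap18sr45 was the fragile one of the 3: it was not called by limma on log2 cRPKM (adjusted p = 0.144) or limma-voom (0.0884), nor without Col0 replicate 1 (0.0541), Col0 replicate 2 (0.227), sap18sr45 replicate 1 (0.12) or sap18sr45 replicate 2 (0.116).

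ARR7 fell by a like amount in each mutant. It encodes a type-A regulator that acts in the shoot meristem, where the stem cell factor WUSCHEL represses it. The level of ARR7 was 98.8 and 99.6 cRPKM in Col0, 64.9 and 57.3 in sr45, 67.3 and 75.8 in sap18sr45, and 73.8 and 69.6 in asap. Every mutant library lay below both Col0 libraries, and the libraries of sap18sr45 and asap overlapped. The log2 difference from Col0 was -0.72 ± 0.10 in sr45 (adjusted p = 2.79e-06), -0.53 ± 0.10 in sap18sr45 (7.89e-05) and -0.64 ± 0.10 in asap (3.65e-06). No pair of mutants was told apart: sap18sr45 differed from sr45 by 0.19 (95% interval -0.03 to 0.41), asap from sap18sr45 by -0.10 (-0.31 to 0.11) and asap from sr45 by 0.09 (-0.13 to 0.31), all on the log2 scale.

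ARR15, the closest relative of ARR7 and likewise a type-A regulator of the meristems, showed the largest proportional fall of the 8 genes in sr45 and asap. Its level was 31.8 and 27.0 cRPKM in Col0, 11.8 and 11.3 in sr45, 16.5 and 18.6 in sap18sr45, and 9.87 and 13.5 in asap. The Col0 libraries stood above all others, sap18sr45 lay between, and the libraries of sr45 fell within the range of those of asap. The log2 difference from Col0 was -1.38 ± 0.23 in sr45 (2.60-fold lower, adjusted p = 2.97e-05), -0.82 ± 0.20 for sap18sr45 (1.76-fold lower, adjusted p = 0.00265) and -1.49 ± 0.22 for asap (2.80-fold lower, adjusted p = 1.65e-06). Leaving out sap18sr45 replicate 1 (adjusted p = 0.0823) or Col0 replicate 1 (0.106) ended the call in sap18sr45. Between asap and sap18sr45 the log2 difference was -0.67 ± 0.23 (adjusted p = 0.0248), a call lost with DESeq2 (0.115), in a fit of the 4 libraries alone (0.0603) and without sap18sr45 replicate 1 (0.0732), sap18sr45 replicate 2 (0.148) or asap replicate 1 (0.142). The sr45 level was not told apart from that of asap (log2 difference -0.11, 95% interval -0.64 to 0.43) or of sap18sr45 (0.56, 0.06 to 1.06, adjusted p = 0.223).

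ARR3, the closest relative of ARR4, went the other way but was barely expressed. It had 3 and 2 counts in the Col0 libraries, 0 and 2 in sr45, 14 and 4 in sap18sr45, and 15 and 11 in asap, which gave levels of 0.22 and 0.22, 0.00 and 0.27, 1.11 and 0.49, and 2.15 and 1.27 cRPKM. Both asap libraries were above all others in cRPKM, and the sap18sr45 libraries lay between those of asap and Col0. Scaled to library size, the counts of asap exceeded those of Col0 6.64-fold (95% interval from counting error alone 2.51 to 22.1) and those of sr45 8.78-fold (2.2 to 76.4). The fitted log2 difference from Col0 was 2.68 ± 0.87 in asap (adjusted p = 0.0119), 1.79 ± 0.93 in sap18sr45 (0.163) and -0.40 ± 1.43 in sr45 (0.875). The asap call was lost with DESeq2 (adjusted p = 0.0573) and without Col0 replicate 1 (0.144), Col0 replicate 2 (0.109) or asap replicate 1 (0.0566). Levels in asap and sap18sr45 were not told apart (log2 difference 0.88, 95% interval -0.58 to 2.35, adjusted p = 0.373). Against sr45 the log2 difference in asap was 3.07 ± 1.09 (adjusted p = 0.0359), a call lost with no filter on low counts (0.052), with DESeq2 (0.117) and without sr45 replicate 1 (0.188), asap replicate 1 (0.0993) or sr45 replicate 2, where the fitted difference was 6.82 (0.0978). The annotated gene spans of ARR3 and ARR4, introns included, share an identical run of 41 bases, the longest between any pair of the 8. Whether any reads were assigned to the wrong gene of this pair was not tested. Of 10 type-A loci listed, only these 4 had values, so their sum is not the type-A total of the seedlings. Summed over the 4 type-A genes, the level was 306 and 309 cRPKM in Col0, 210.0 and 206 in sr45, 247 and 256 in sap18sr45, and 172 and 167 in asap, and was set almost wholly by ARR4 and ARR7.

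**Figure D2:**
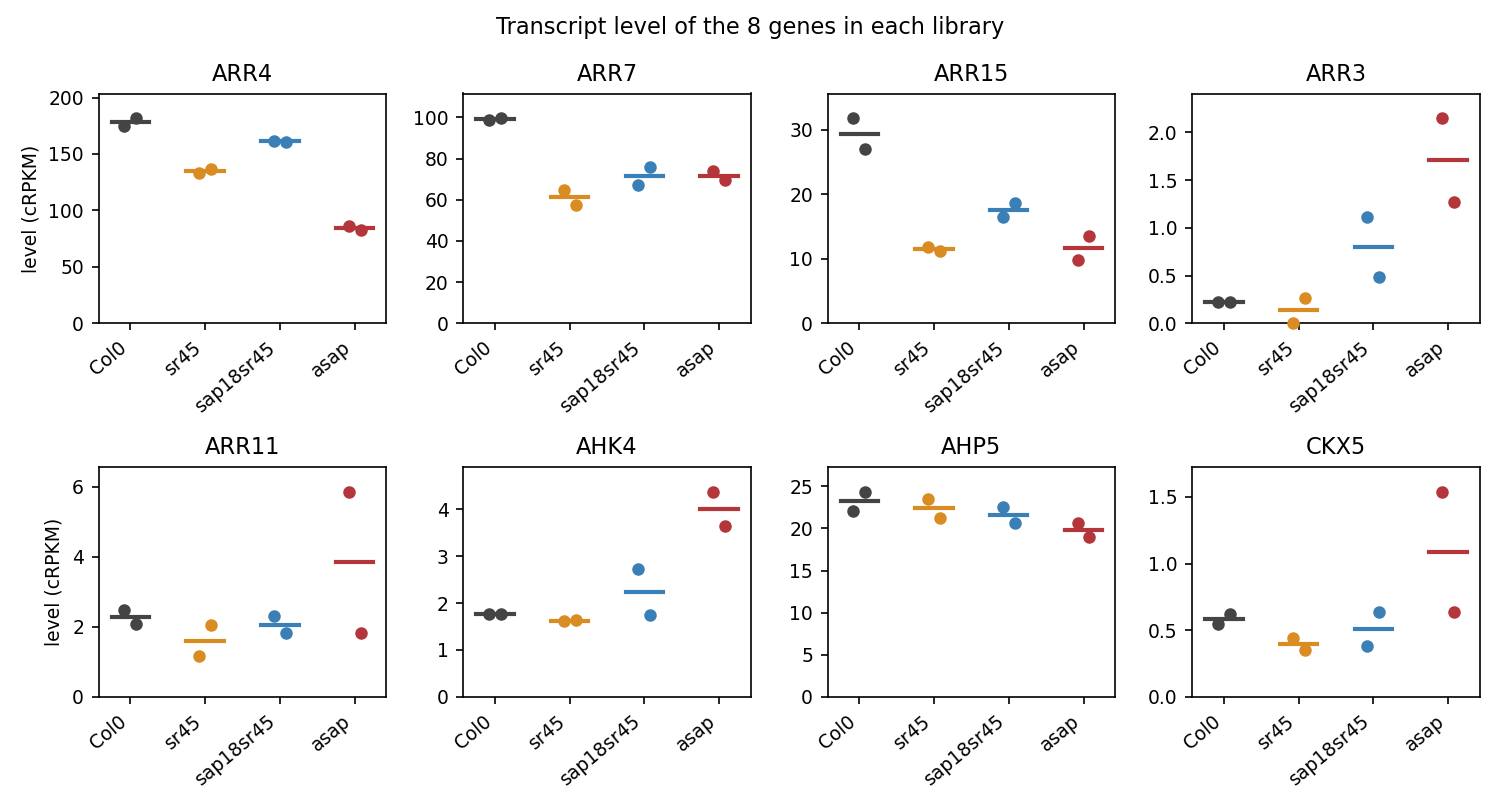
Level in cRPKM (vertical axis, own scale for each gene) of the 8 genes in every library, by genotype (horizontal axis), with points for libraries and bars for the mean of 2. For ARR4, ARR7 and ARR15 the Col0 points stand above those of all mutants, for AHK4 the asap points stand above all others, and for ARR11 and CKX5 asap replicate 1 stands alone.

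AHK4, the receptor that in cytokinin-free cells also withdraws phosphoryl groups from the phosphotransfer proteins, and that is best known from the root vasculature, was higher in asap. Its level was 1.76 and 1.76 cRPKM in Col0, 1.61 and 1.64 in sr45, 2.72 and 1.74 in sap18sr45, and 4.38 and 3.65 in asap. The asap libraries lay above all others, while sap18sr45 replicate 2 lay just below Col0 and sap18sr45 replicate 1 above it. Against Col0 the log2 difference in asap was 1.02 ± 0.24 (2.03-fold, adjusted p = 0.000683), against sr45 it was 1.15 ± 0.26 (adjusted p = 0.00146) and against sap18sr45 0.70 ± 0.23 (adjusted p = 0.0199). The last call was lost with DESeq2 (adjusted p = 0.0983), with limma on log2 cRPKM (0.066) and without asap replicate 1 (0.0621) or sap18sr45 replicate 2 (0.297, with a log2 difference of 0.44). In sr45 the log2 difference from Col0 was -0.13 (95% interval -0.69 to 0.44) and in sap18sr45 0.31 (-0.18 to 0.81), and neither was called.

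The type-B regulator ARR11 was not called in any comparison, and its 2 asap libraries disagreed. The level was 2.47 and 2.08 cRPKM in Col0, 1.16 and 2.04 in sr45, 2.30 and 1.81 in sap18sr45, and 5.86 and 1.82 in asap. Asap replicate 1 was above every other library, and asap replicate 2 was below both Col0 libraries. The log2 difference of asap from Col0 was 0.54 ± 0.38 (95% interval -0.24 to 1.32, adjusted p = 0.24). Without asap replicate 2 it was 1.16 (adjusted p = 0.000725), and the difference from sap18sr45 was then 1.36 (adjusted p = 0.000228) and from sr45 1.61 (adjusted p = 0.000109), so 1 library decided these values. The difference between asap and sr45 (adjusted p = 0.0891) was also called with no filter on low counts (0.0316).

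CKX5, whose product degrades cytokinins, was low throughout and showed the same split. It had 20 and 15 counts in Col0, 5 and 7 in sr45, 13 and 14 in sap18sr45, and 29 and 15 in asap, that is 0.55 and 0.62, 0.44 and 0.35, 0.38 and 0.64, and 1.54 and 0.64 cRPKM. Again asap replicate 1 alone was high. No comparison was called: the log2 difference from Col0 was -0.62 (95% interval -1.97 to 0.73) in sr45, -0.30 (-1.46 to 0.87) in sap18sr45 and 0.70 (-0.39 to 1.80) in asap. Without asap replicate 2 the asap difference was 1.21 (adjusted p = 0.0489) from Col0, 1.52 (0.0246) from sap18sr45 and 1.83 (0.0193) from sr45. CKX5 is also the only member that overlaps other annotated genes, 3 in all, with overlaps that add up to 1125 bases. The protein-coding AT1G75440 and the long noncoding RNA gene AT1G09557 are on the opposite strand. The long noncoding RNA gene AT1G09553 is on the strand of CKX5. As no source used here gives the use of strand in counting, the reads in the overlaps cannot be assigned, and strand would not separate those shared with AT1G09553.

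AHP5, a phosphotransfer protein that relays the signal from the receptors, varied little. Its level was 22.1 and 24.4 cRPKM in Col0, 23.6 and 21.3 in sr45, 22.6 and 20.7 in sap18sr45, and 20.7 and 18.9 in asap. The libraries of sr45 and sap18sr45 overlapped with Col0, and those of asap lay below both Col0 libraries. The log2 difference from Col0 was -0.07 (95% interval -0.40 to 0.26) in sr45, -0.15 (-0.46 to 0.16) in sap18sr45 and -0.39 ± 0.16 in asap (adjusted p = 0.0375). The asap call was lost with a floor of 50 counts (adjusted p = 0.0699), DESeq2 (0.12), limma on log2 cRPKM (0.147) and limma-voom (0.0512), and without Col0 replicate 1 (0.0603), Col0 replicate 2 (0.209) or asap replicate 2 (0.103).

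The rest of the pathway was read from lists of 79 further cytokinin loci, of which 19 had values and 13 were tested. Against Col0, 1 was higher and 6 lower in sr45, 2 were higher and 5 lower in sap18sr45, and 5 were higher and 6 lower in asap, beside 31.7%, 27.1% and 51.6% of all genes called. Their medians were -0.57, -0.25 and -0.11 on the log2 scale, beside -0.01, 0.01 and 0.01 over all genes. The number called in asap, 11 in all, was 7 without Col0 replicate 1 and 6 without Col0 replicate 2, and that in sap18sr45, 7 in all, was 4 without Col0 replicate 1, Col0 replicate 2 or sap18sr45 replicate 2. UGT85A1, which glucosylates the cytokinin zeatin, had the largest called fall of the 13 in each mutant: its level was 41.6 and 41.9 cRPKM in Col0, 7.92 and 9.28 in sr45, 17.4 and 17.3 in sap18sr45, and 6.19 and 6.42 in asap. Its log2 difference from Col0 was -2.27 ± 0.14 in sr45 (adjusted p = 2.46e-13), -1.32 ± 0.12 in sap18sr45 (6.87e-10) and -2.89 ± 0.14 in asap (3.52e-16), and it was higher in sap18sr45 than in sr45 by 0.95 (8.28e-05). In asap UGT85A1 lay below sap18sr45 by a log2 difference of -1.56 (adjusted p = 1.7e-09) and below sr45 by -0.62 (0.00766, but 0.134 without sr45 replicate 2 and 0.109 in a fit of the 4 libraries alone). As for ARR4, ARR15 and SR45 RNA itself, the level of UGT85A1 in sap18sr45 lay between those of Col0 and the other mutants. The part of the unequal SR45 level in this order was not tested.

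KMD1 and KMD2, F-box proteins that mark type-B regulators for degradation, fell in all 3 mutants. The level of KMD1 was 217 and 219 cRPKM in Col0, 142 and 154 in sr45, 119 and 123 in sap18sr45, and 158 and 171 in asap, with log2 differences from Col0 of -0.57 (adjusted p = 1.13e-07), -0.91 (1.48e-11) and -0.57 (2.97e-08). KMD1 was lower in sap18sr45 than in sr45 by 0.34 on the log2 scale (adjusted p = 0.00165, but 0.109 without sap18sr45 replicate 1) and higher in asap than in sap18sr45 by 0.34 (0.000222), so it was lowest in sap18sr45, unlike ARR4, ARR7 and ARR15. KMD2 had log2 differences from Col0 of -1.33 in sr45 (adjusted p = 3.28e-07), -0.83 in sap18sr45 (7.3e-05) and -1.33 in asap (4.94e-08), and it differed between asap and sap18sr45 by -0.49 (0.0209, but 0.469 without sap18sr45 replicate 1, 0.108 without asap replicate 2, 0.104 with DESeq2, 0.184 with limma on log2 cRPKM and 0.0563 in a fit of the 4 libraries alone). EXPA1, a cell-wall expansin induced by type-B regulators, rose in all 3 mutants, by 0.64 in sr45 (adjusted p = 6.85e-09), 0.48 in sap18sr45 (8.95e-07) and 0.70 in asap (3.25e-10). The cytokinin-induced genes thus did not move one way, with ARR4, ARR7 and ARR15 lower and EXPA1 higher in the same libraries.

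Of the transport genes, ABCG14, which exports cytokinin for its passage from root to shoot, followed AHK4. Its level was 2.39 and 2.23 cRPKM in Col0, 2.70 and 2.07 in sr45, 2.65 and 2.86 in sap18sr45, and 6.75 and 5.04 in asap, and asap was higher than Col0 by 1.17 ± 0.24 on the log2 scale (adjusted p = 0.000174), than sap18sr45 by 0.98 (0.00198) and than sr45 by 1.18 (0.00116, but 0.0575 without sr45 replicate 2). PUP14, an importer that takes up cytokinin from outside the cell, was lower than in Col0 in sr45, by a log2 difference of -0.68 (adjusted p = 3.11e-05), and in sap18sr45, by -0.34 (0.0144, but 0.192 with limma on log2 cRPKM, 0.159 without sap18sr45 replicate 2, 0.135 without Col0 replicate 1 and 0.0649 without Col0 replicate 2). PUP14 was higher in asap than in sap18sr45 by 0.60 (5.41e-05) and than in sr45 by 0.94 (3.74e-07), but than in Col0 by 0.26 (0.0309, but 0.092 with DESeq2, 0.13 and 0.192 without Col0 replicates 1 and 2, and 0.124 without asap replicate 2). The sulfotransferase gene ST4B, known as cytokinin-induced, was higher in asap than in Col0 by 2.04 ± 0.59 (adjusted p = 0.00494, but 0.108 without Col0 replicate 2) and than in sr45 by 2.65 (0.00765, but 0.106 without sr45 replicate 2). ASL9, another cytokinin-induced gene, was higher in sap18sr45 than in Col0 by 1.79 ± 0.64 (adjusted p = 0.0399), a call lost without any of the 4 libraries compared (0.144 and 0.313 without Col0 replicates 1 and 2, and 0.192 and 0.18 without sap18sr45 replicates 1 and 2), with DESeq2 (0.131), with limma-voom (0.0836) and with a replicate block (0.0514). ASL9 was also higher in asap than in Col0, by 1.98 ± 0.65 (adjusted p = 0.0118, but 0.0852 with limma-voom, 0.0571 and 0.146 without Col0 replicates 1 and 2, and 0.21 without asap replicate 2). Among the type-B regulators, ARR14 was lower in asap than in sap18sr45 by a log2 difference of -0.64 (adjusted p = 0.00825, but 0.185 without sap18sr45 replicate 2) and than in sr45 by -0.52 (0.0481). The last call was lost without sr45 replicate 2 (adjusted p = 0.287) or asap replicate 1 (0.112), with a floor of 50 counts (0.0555), DESeq2 (0.146), limma on log2 cRPKM (0.158), a fit of the 4 libraries alone (0.133) and a replicate block (0.0523). ARR14 was also lower in asap than in Col0, by -0.59 (adjusted p = 0.00882, but 0.069 with limma on log2 cRPKM and 0.0664 without Col0 replicate 1). Of the genes for synthesis and activation, 3 had values and 0 were tested, with IPT1 and IPT6 at 0 counts in every library.

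**Figure D3:**
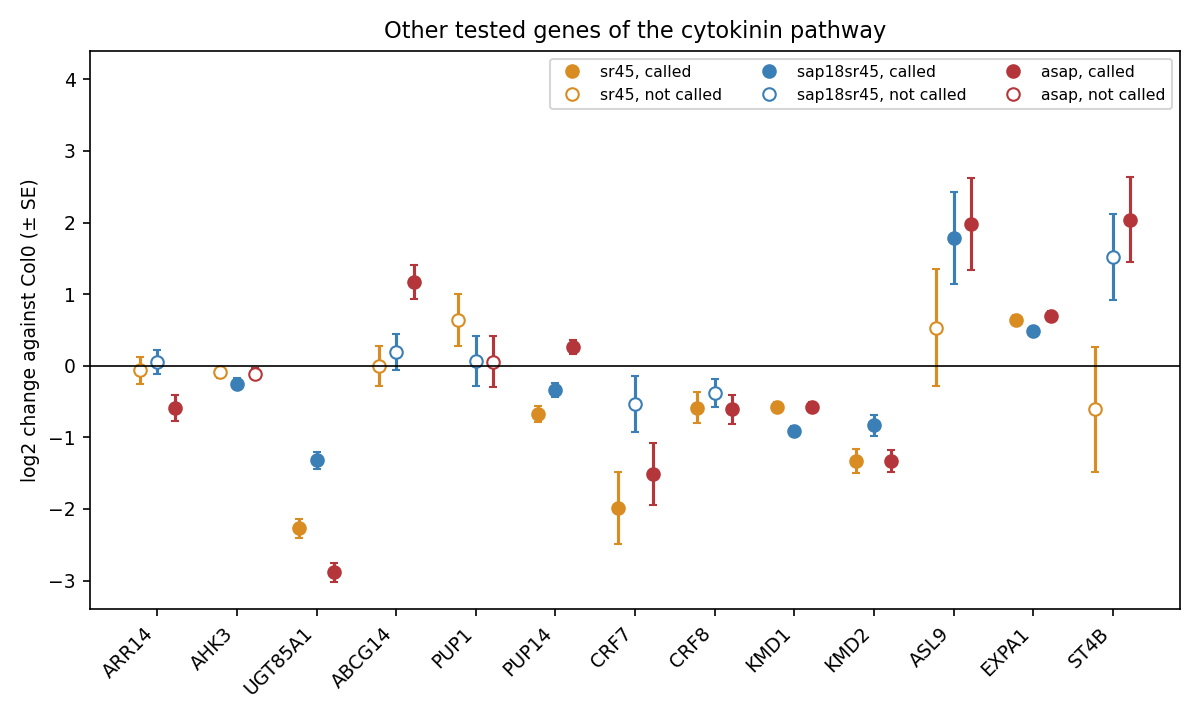
Log2 difference from Col0 (vertical axis, ± SE) of the 13 other tested cytokinin genes (horizontal axis) in sr45, sap18sr45 and asap, with filled points for genes called by the edgeR test. UGT85A1, KMD1 and KMD2 lie below 0 and EXPA1 above 0 in all 3 mutants, and ABCG14 is called in asap and not in the other mutants.

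Seedlings hold many cell types, and fewer cells of a type cannot be told apart from less RNA per cell. The labels do not say how much root was taken with the shoots. Markers of root cells moved with the asap values: of 11 root loci, 7 had values, and their summed level was 3.22 and 2.71 cRPKM in Col0, 4.16 and 5.09 in sr45, 10.2 and 7.98 in sap18sr45, and 48.4 and 42.9 in asap. Of 5 root markers tested, 0 were higher in sr45, 2 in sap18sr45 and 5 in asap, beside 15.2%, 12.9% and 25.6% of all genes. The peroxidase gene PER3 made up 43.1 and 30.1 cRPKM of the asap sums. The root stem cell gene PLT2 had 0 counts in both Col0 and both sr45 libraries and 6 and 3 counts in asap. ARR3, AHK4 and ABCG14 were likewise highest in asap, and the part of root tissue in their rise was not tested. Markers of dividing cells summed to 28.4 and 25.4 cRPKM in Col0, 29.8 and 44.7 in sr45, 45.9 and 47.7 in sap18sr45, and 64.0 and 61.6 in asap. Of 8 tested, 3, 4 and 6 were higher in the 3 mutants, beside the same 15.2%, 12.9% and 25.6% of all genes.

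Markers of the vasculature, where AHK4 is best known, summed to 82.8 and 80.7 cRPKM in Col0 and 86.9 and 96.1 in asap. Of 5 tested, 2 were higher and 1 lower in asap, beside 25.6% and 26% of all genes. Single markers moved in opposite directions within this sum. XCP2 was at 10.6 and 11.5 cRPKM in Col0 and 30.6 and 32.1 in asap. SUC2, the largest part of the sum in Col0, was at 46.8 and 46.4 in Col0 and 23.4 and 34.7 in asap. Shoot meristem markers, of which 5 of 8 had values, summed to between 14.8 and 19.3 cRPKM in Col0, sr45 and sap18sr45 and to 25.7 and 20.8 in asap. Of 4 tested, 0 were called in asap, beside 51.6% of all genes. The receptor kinase gene CLV1 was the 1 marker lower in sr45 and in sap18sr45, beside 16.5% and 14.2% of all genes. The level of CLV1 was 9.24 and 8.56 cRPKM in Col0, 4.26 and 6.13 in sr45, 5.71 and 4.90 in sap18sr45, and 9.06 and 7.18 in asap. The other 3 tested markers were not called in either of these mutants. The median log2 difference of the 4 was -0.18 in sr45 and 0.34 in sap18sr45. STM averaged 4.325 cRPKM in Col0, 4.96 in sr45 and 6.975 in sap18sr45, and KNAT6 averaged 3.77, 4.4 and 4.475. The part of meristem tissue in the fall of ARR7 and ARR15 was not tested. Green leaf markers summed to 32780 and 33380 cRPKM in Col0 and 36160 and 36900 in asap. Of the 6 tested, 5 were nevertheless lower in asap, beside 26% of all genes, and 1, RBCS1A, was higher and set the sum. The part of leaf tissue in the fall of ARR4 was not tested.

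**Figure D4:**
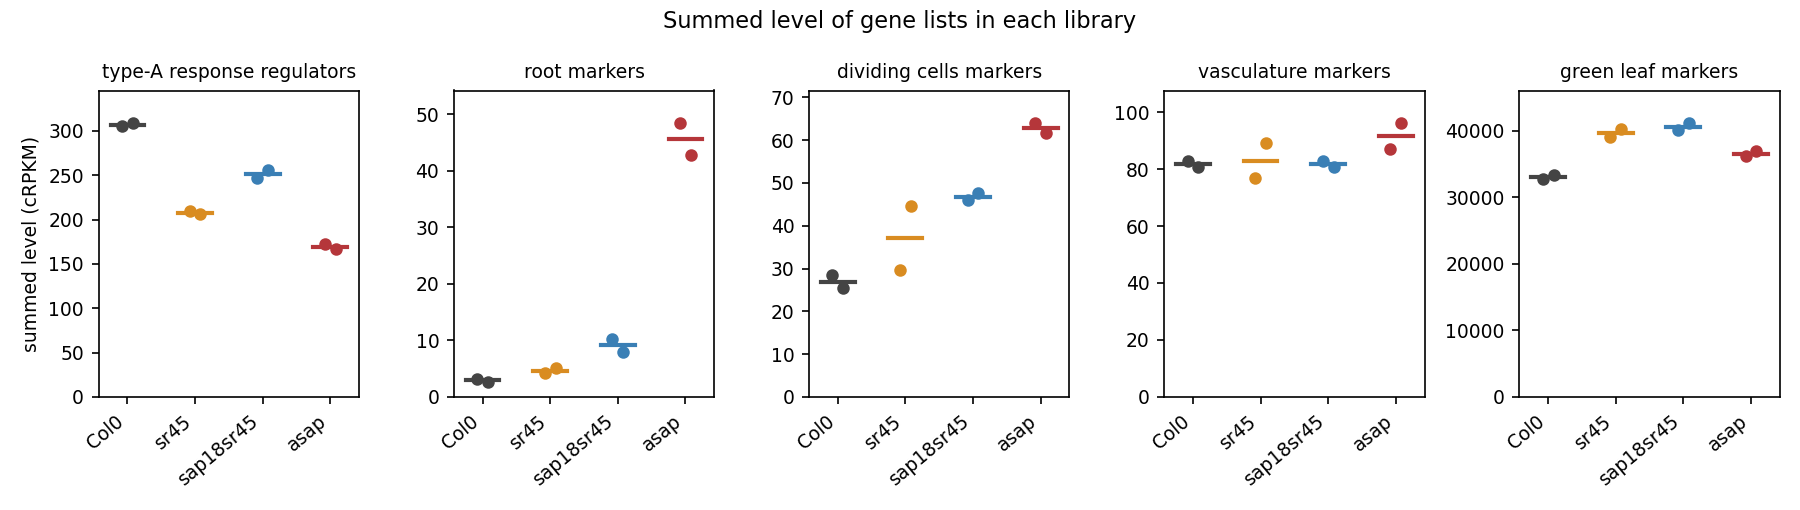
Summed level in cRPKM (vertical axis, own scale for each list) of the 4 type-A response regulators and of markers of root, dividing cells, vasculature and green leaf in every library, by genotype (horizontal axis), with points for libraries and bars for the mean of 2. The type-A sum, over 4 of 10 listed loci, is highest in Col0 and lowest in asap, while the root marker sum is highest in asap.

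Across the 8 libraries, which share 4 genotypes, the log2 CPM of ARR7 and ARR15 went together (Pearson r = 0.908, Spearman rho = 0.714), as did that of ARR3 and AHK4 (r = 0.91, rho = 0.81). ARR4 went with AHP5 (r = 0.85, rho = 0.738) and against AHK4 in Pearson terms (r = -0.808) but not in rank (rho = -0.214), since the 2 differ from the rest mainly in asap. The genes most like each member over the 8 libraries, among named genes of at least 5 CPM, are given as a description. For ARR4 they were IDD4 (r = 0.998) and TRM3 (0.992), for ARR7 PTI11 (0.975) and PI4KG6 (0.973), and for ARR15 UGT71C4 (0.984). For AHK4 they were the beta-glucosidase gene BGLU21 (r = 0.956) and NAT4 (0.951), for ARR3 FAX4 (0.973) and CAF1-5 (0.954), and for AHP5 CLPR1 (0.971) and CCS (0.968). ARR11 was most like PUMP3 (r = 0.929) and GRF4 (0.922), and CKX5 most like MNS3 (0.907) and ECH (0.885).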

How the data were processed

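RNA sequencing libraries of seedlings, 2 per genotype, were grouped by the genotype in their labels. The authors quantified reads with vast-tools v.2.5 on TAIR10 and deposited raw read counts per gene, with no normalization, beside cRPKM, an RPKM corrected for mappable length. Nothing in the labels says that the 2 libraries per genotype were separate cultures, and p-values measure only the spread between them, which may be technical. The table as used here held 9998 loci, 8046 with values on chromosome 1 and 1490 on chromosome 2, and 462 without values. A line with no locus, at most 0.00281% of counts, was left out.

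Counts were tested with edgeR 4.0.16 in R 4.3.3 (default filterByExpr, TMM factors from 0.956 to 1.09, 4 residual degrees of freedom in 1 robust quasi-likelihood fit of all 8 libraries). The 6 pairwise contrasts were tested 2-sided, with Benjamini-Hochberg adjustment over all 5261 genes. SE is the size of the log2 difference over the square root of F. Alternatives were other filters and scalings, DESeq2 1.42.0, limma 3.58.1 on log2(cRPKM + 0.5) or log2(cRPKM + 1), limma-voom with quantile normalization, a replicate block, leaving out each library, and the rule of the study (at least 2-fold in every pair of libraries, at least 50 counts and cRPKM over 5).

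The members and lists were chosen with earlier results of these data known. Named genes were the 8 members, SR45, up to 3 called genes in each direction and comparison from the other cytokinin lists, those with the smallest adjusted p, and the 2 genes with a symbol most correlated with each member, of which 1 is not reported here. Further comparisons of PUP14, ARR14 and ASL9 were added after their values were seen. So were the genes IPT1, IPT6, PLT2, PER3, XCP2, SUC2, CLV1, STM, KNAT6 and RBCS1A. Upstream windows came from RefSeq TAIR10.1 with its own annotation, and no coordinates were taken from the deposited table. Intervals of count ratios cover counting error only.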

Additional observations from a re-analysis of the deposited data

How the results depend on the processing

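Of 649 values of the 8 genes under the alternatives, 590 kept their direction and side of the threshold, 51 lost a call, 8 gained one and 0 called values changed sign. ARR7 kept every call against Col0 except under the 2-fold rule of the study, which tests no spread. That rule called 138 genes in sr45, 105 in sap18sr45 and 442 in asap against Col0, 9 between sap18sr45 and sr45, 161 between asap and sap18sr45 and 114 between asap and sr45. Of the 8 genes it called 1, 0 and 2 against Col0, and 0 in the last 2 comparisons. However, ARR3, AHK4 and CKX5 were below its cRPKM floor in every library. ARR11 was above the floor only in asap replicate 1, at 5.86 cRPKM, while the rule asks for both libraries of a genotype. A fit of only the 4 libraries compared, which shares the spread of 2 genotypes, moved the counts both ways. Against Col0 it called 1863 genes in sr45, 2168 in sap18sr45 and 2591 in asap, beside 1669, 1425 and 2713 in the main fit. It called 335 between sap18sr45 and sr45, 1485 between asap and sap18sr45 and 996 between asap and sr45, beside 295, 1689 and 1433. limma on log2 cRPKM called 171 genes (pseudocount 0.5) or 173 (pseudocount 1) between sap18sr45 and sr45. Of the 8 genes, limma-voom called 1 between sap18sr45 and sr45, and DESeq2 called 1 between asap and sap18sr45. The causes were not tested.

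Leaving out 1 library at a time gave 1023 to 1314 genes called in sr45 against Col0, 758 to 854 in sap18sr45 and 1952 to 2807 in asap. It gave 112 to 259 between sap18sr45 and sr45, 988 to 1905 between asap and sap18sr45 and 1001 to 1632 between asap and sr45. Of the 8 genes, it left 3 called in sr45, 1 to 2 in sap18sr45 and 4 to 7 in asap against Col0, 0 between sap18sr45 and sr45, 1 to 5 between asap and sap18sr45 and 2 to 5 between asap and sr45. The lone library of a genotype was then assumed to vary like the others.

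Libraries with the same replicate number did not deviate together (r between -0.107 and 0.085 over 3272 genes), so the numbers do not pair them. With a replicate block, 1617, 1355 and 2654 genes were called against Col0, 267 between sap18sr45 and sr45, 1604 between asap and sap18sr45 and 1360 between asap and sr45, and the calls of the 8 genes stayed at 3, 3, 6, 0, 3 and 3. Of the other named genes, ASL9 in sap18sr45 against Col0 (adjusted p = 0.0514) and ARR14 between asap and sr45 (0.0523) lost their calls under the block.

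On log2(cRPKM + 0.5) the share of calls that were higher moved from 47.6% to 59.5% in sap18sr45 and from 49.6% to 63.3% in asap against Col0, from 44.7% to 55% between sap18sr45 and sr45, from 48.1% to 64.6% between asap and sap18sr45 and from 46.7% to 70.5% between asap and sr45. Depth limited ARR3 and CKX5, which had at most 29 counts in any library.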
